A study of Homo sapiens with 12 samples.

Results

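This section describes 42 transcription factors that mark positions along the front-to-back and back-to-belly axes of the developing brain and spinal cord, in human neuronal cultures with and without knockdown of the RNA-binding protein ZCCHC17. The genes were taken by symbol from the deposited count table, which holds 59653 gene symbols, and all 42 were found there. They are the SOXB1 factors SOX1, SOX2 and SOX3 and factors of the forebrain, midbrain, hindbrain and spinal cord, grouped by role below. The cells were human neurons made from reprogrammed (induced pluripotent) IMR-90 cells, an established line of lung fibroblasts, and the sample titles also carry the letters NPC, whose meaning the labels do not give. Total RNA was sequenced from 6 libraries given a negative control siRNA (siNC) and 6 given an siRNA against ZCCHC17 (siZCC). A single line was used, and the labels do not say whether replicates were separate cultures, so the p-values below measure only the spread between these libraries.

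In the early neural tube, opposing signals give each position its own set of these factors. WNT, FGF and retinoic acid act along the length and hedgehog and BMP across it. OTX, SIX3, EMX2 and LHX2 mark the front, EN and PAX2/5/8 the midbrain and its border with the hindbrain, and HOX genes the hindbrain and spinal cord. Neurons keep part of this set, so the factors a culture expresses show which regions its cells resemble. A bulk library cannot tell 1 cell with several factors from several kinds of cell, and fewer cells of a kind cannot be told apart from less RNA per cell.

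Library totals ran from 76115083 to 120023356 counts, and 24671 genes had enough counts to be tested. The knocked-down gene, ZCCHC17, averaged 56.9 ± 2.49 CPM, counts scaled to library size, over the siNC libraries; the siZCC libraries averaged 9.999 ± 0.507 CPM (SD, n = 6 each). The log2 fold change of -2.51 (SE 0.0402) had an adjusted p of 3.52e-17. Here and below, adjusted p-values come from edgeR's quasi-likelihood test, adjusted over all genes tested by the Benjamini-Hochberg method. The libraries also split into 6 with high and 6 with low IL1B, 3 of each in either group, at 5.23 to 15.97 CPM against 0.0223 to 0.100 CPM. This split was drawn from the data.

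The siNC cultures held factors of several regions at once. Levels were compared between genes as CPM per kilobase of annotated exon, averaged over the 6 siNC libraries with their SD. SOX2, which keeps neural progenitors undifferentiated, was the highest at 247 ± 8.19. NKX6-1, a factor of ventral progenitors and some neurons of the hindbrain and spinal cord, followed at 50.5 ± 2.32. SOX1, an early neural factor, stood at 34.0 ± 1.80 and MEIS2, a cofactor of forebrain and hindbrain development, at 32.4 ± 1.28, within their spread of each other.

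Next came factors of opposite ends of the brain at like levels. EN1, a factor of the midbrain and its border with the hindbrain, stood at 15.9 ± 1.53 CPM per kilobase. LMX1B, which acts in midbrain dopamine and hindbrain serotonin neurons, stood at 14.4 ± 1.57. NKX2-1, a factor of the hypothalamus and ventral telencephalon, stood at 14.3 ± 1.67. The ranges of these 3 over the siNC libraries overlapped, but EN1 was above LMX1B in every siNC library. HOXB2, a hindbrain factor, followed at 11.8 ± 0.924. EMX2 (9.85 ± 0.970), a factor of the dorsal telencephalon, IRX3 (9.38 ± 0.605), a broad factor of the tube behind the front, and LHX2 (8.36 ± 0.877), a factor of the cortex and eye field, overlapped over libraries. Within libraries, EMX2 was above LHX2 in every siNC library. DLX1, next in order at 6.09 ± 0.223, was below LHX2 in every siNC library.

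**Figure D1:**
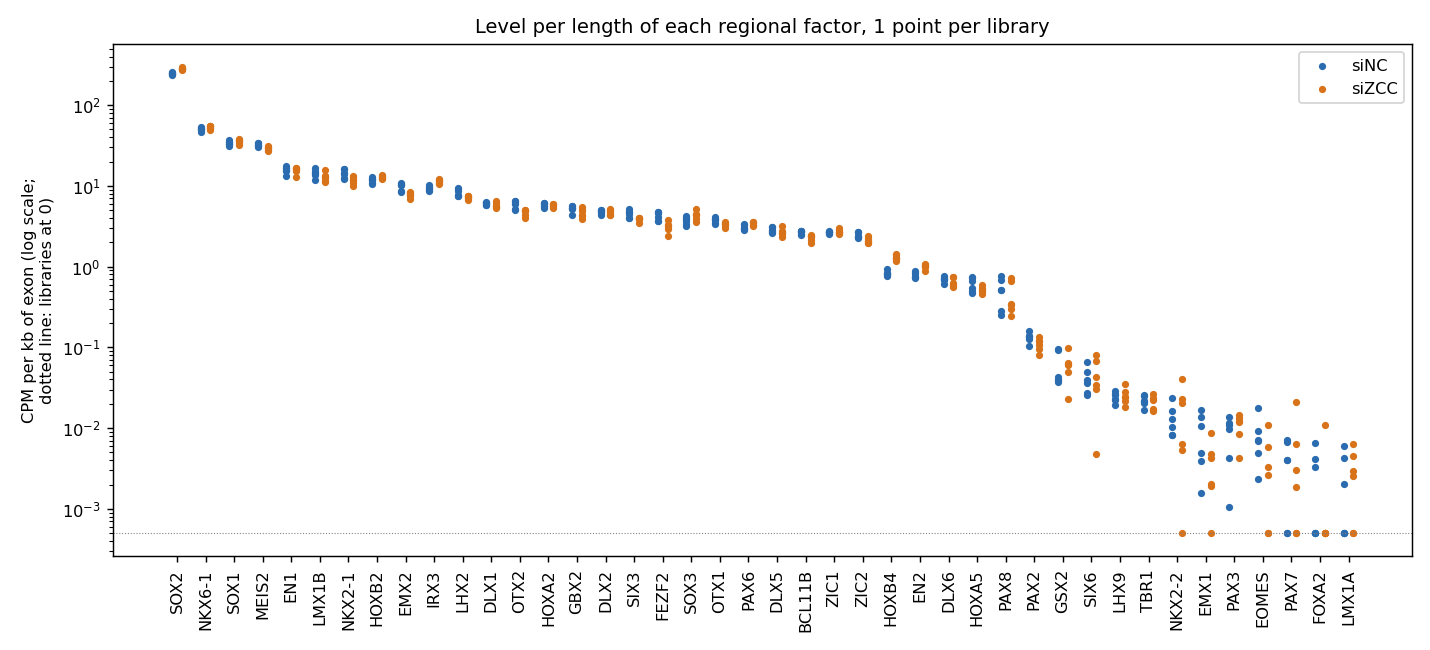
Level per length (CPM per kilobase of exon, log scale) of each of the 42 factors in every library, siNC and siZCC side by side, ordered by the siNC mean; libraries with 0 counts are drawn on the dotted line. SOX2 leads at 247, and EN1, LMX1B, NKX2-1 and HOXB2, factors of different regions, follow between 11.8 and 15.9 in siNC.

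Of the forebrain factors, DLX1 (6.09 ± 0.223), DLX2 (4.76 ± 0.272), OTX2 (5.86 ± 0.615), SIX3 (4.52 ± 0.488), FEZF2 (4.26 ± 0.523) and OTX1 (3.75 ± 0.281) were present in all siNC libraries. HOXA2 (5.79 ± 0.358) and GBX2 (5.26 ± 0.465), both of the anterior hindbrain, lay in the same range. PAX6, a factor of dorsal forebrain and other progenitors, stood at 3.07 ± 0.212, but its annotated exons are long. With the longest transcript as the length it stood at 8.77, and MEIS2 at 72.5, so the place of these factors in the order depends on the length used. The same holds for some factors above. By that length HOXB2 stood at 17.6, beside EN1 (18.6) and NKX2-1 (17.5) and above LMX1B (14.4). DLX1 stood at 8.43, beside LHX2 (8.69). The median over all genes tested was 2.32 CPM per kilobase.

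Several of the factors were almost missing. EMX1 and EOMES, which mark cortical progenitors of excitatory neurons, gave 1 to 11 and 1 to 6 counts per siNC library. TBR1, a factor of early cortical neurons, gave 18 to 29 counts, or 0.210 ± 0.0310 CPM, and GSX2, of the lateral ganglionic eminence, 0.112 ± 0.0550 CPM. The floor plate factor FOXA2 had 0 counts in 3 of 6 siNC libraries, and LMX1A, its partner in midbrain dopamine progenitors, also in 3. PAX7 gave 0 to 5, PAX3 1 to 12 and NKX2-2 2 to 6 counts. A count of 3 corresponds to 0.0250 to 0.0401 CPM, depending on the library, and lower levels could not be measured. Outside the 42 genes, RAX, a factor of the eye field and hypothalamus, stood at 2.25 CPM per kilobase in siNC. Thus NKX2-1, SIX3, OTX2 and RAX were measured in cultures where EMX1, EOMES and TBR1 were low. Other factors of the dorsal forebrain and cortical groups were present: EMX2 (9.85 CPM per kilobase), LHX2 (8.36), FEZF2 (4.26) and BCL11B (2.67). LHX9 (0.0242) and SIX6 (0.0408), the latter grouped with SIX3, were low.

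Differences between siZCC and siNC were then taken from a fit over all 24671 genes. Of the 42 factors, 35 had enough counts to be tested, and the other 7 (EMX1, EOMES, NKX2-2, FOXA2, LMX1A, PAX3 and PAX7) had at most 12 counts in any library. In siZCC 10 factors were lower and 6 higher at an adjusted p under 0.05, while 22.2% of all genes tested were called (11.4% higher and 10.8% lower). The share of genes called was larger at higher counts. With a mean count of at least 50, 5573 of 18464 genes and 16 of 31 factors were called. The median log2 fold change was -0.09 over the 35 and -0.0016 over all genes tested. Falls ran from 73.8% to 90.7% and rises from 110% to 157% of the siNC level. The groups did not overlap for 6 of the 35, 4 higher and 2 lower, against 9.74% of all genes tested (5.25% higher and 4.5% lower).

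**Figure D2:**
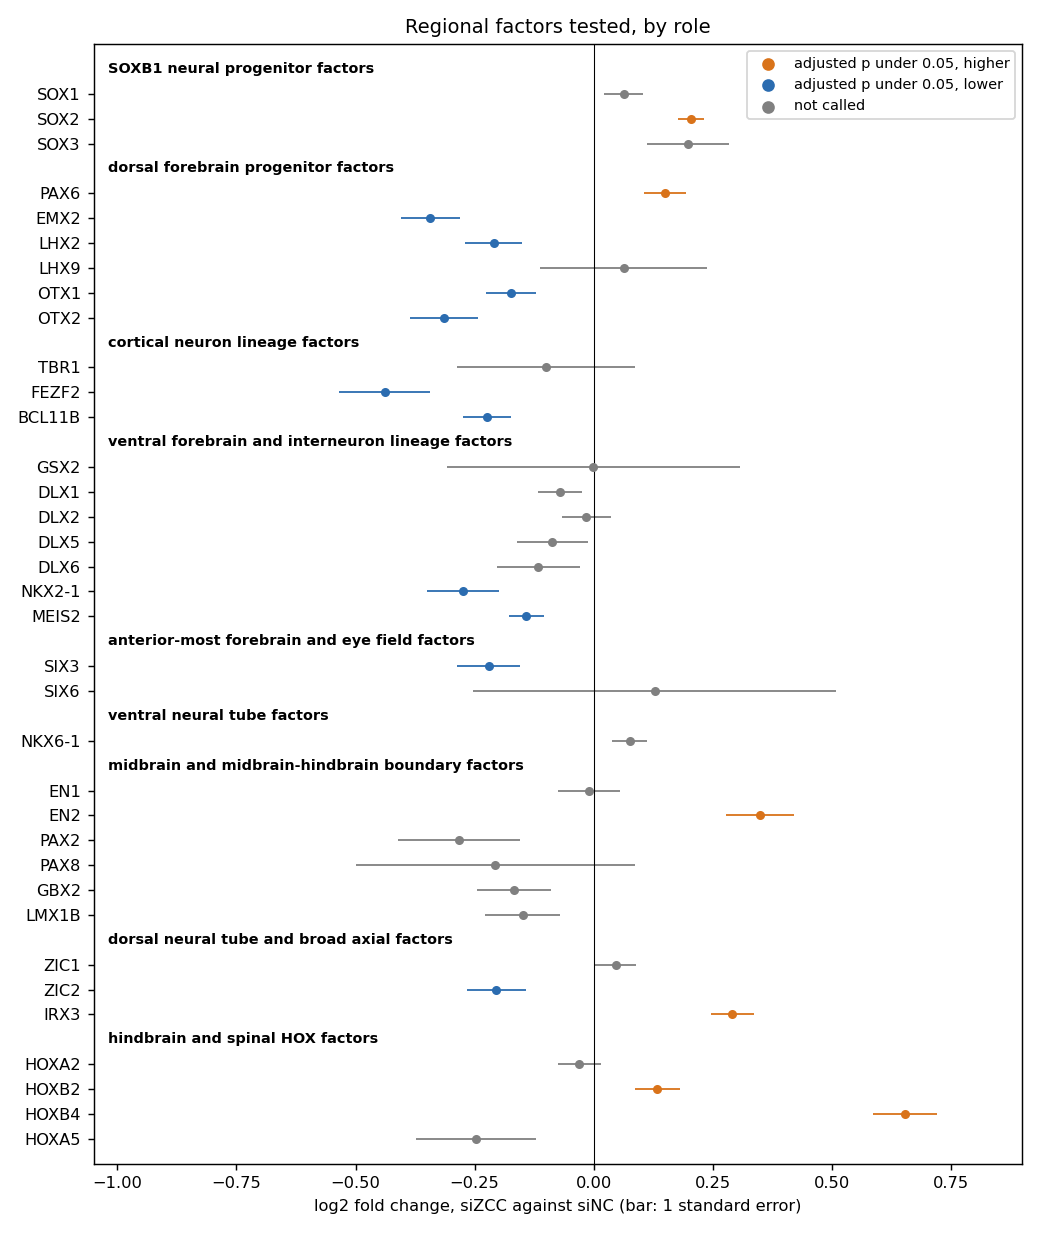
Log2 fold change of siZCC against siNC with its standard error for the 35 factors tested, grouped by role; orange and blue mark factors higher and lower at an adjusted p under 0.05, grey those not called. Forebrain factors lie mostly to the left, while SOX2, EN2, IRX3, HOXB2 and HOXB4 lie to the right.

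Several forebrain factors, but not all, were lower in siZCC. EMX2 ran from 27.8 through a median of 33.6 to 35.2 CPM in siNC, and from 22.4 through 25.4 to 27.7 CPM with siZCC. Every siZCC library lay below every siNC library, by a narrow margin. By edgeR's test it fell by 0.34 on the log2 scale (SE 0.0614, adjusted p 7.88e-04). EMX2 lies on chromosome 10 from 117542444 to 117549546 (GRCh38, GENCODE v29), and 7.8% of its exon bases overlap EMX2OS on the opposite strand. EMX2OS itself fell by 0.38 (SE 0.0659), and since the strand setting of the counting is not given, reads of the pair may not be fully separated.

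OTX2, needed for the forebrain and midbrain to form, stood at 16.5, 19.8 and 21.1 CPM (lowest, median, highest) in siNC and 13.1, 15.99 and 16.7 CPM in siZCC. The groups touched only at siNC replicate 2, the lowest of siNC, and the highest siZCC libraries. It fell by 0.31 on the log2 scale (SE 0.0710, adjusted p 0.0043). OTX1, its relative, stood at 16.4, 18.5 and 19.98 CPM in siNC, and 14.7, 16.3 and 17.4 CPM with siZCC, with a log2 fold change of -0.17 (SE 0.0523, adjusted p 0.0241). Leaving out siNC 4, siNC 6, siZCC 1 or siZCC 2 ended the OTX1 call, with log2 fold changes of -0.14, -0.16, -0.16 and -0.15 and adjusted p from 0.0515 to 0.0597.

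NKX2-1 stood at 38.4, 45.2 and 51.1 CPM in siNC, and 31.8, 37.6 and 41.8 CPM with siZCC. In siNC, 4 libraries lay above every siZCC library and replicates 2 and 5 within the siZCC range. It fell by 0.28 on the log2 scale (SE 0.0751, adjusted p 0.0142). SIX3, which holds back posterior signals in the front of the brain, stood at 10, 11.6 and 13.1 CPM in siNC, and 8.77, 9.93 and 10.2 CPM with siZCC. It fell by 0.22 (SE 0.0651, adjusted p 0.0217), and the call was lost without siNC replicate 4 (-0.18, adjusted p 0.0522) or 6 (-0.20, adjusted p 0.0528). SIX6, its relative in the eye field, gave too few counts for a direction (0.13, SE 0.382). LHX2 stood at 19.9, 21.9 and 25.2 CPM in siNC, and 17.5, 19.4 and 20.1 CPM with siZCC and fell by 0.21 (SE 0.0594, adjusted p 0.0172).

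The fall with the largest size among the 35 was that of FEZF2, a factor of the forebrain and of deep-layer cortical neurons. It stood at 8.01, 9.56 and 10.4 CPM in siNC, and 5.27, 6.97 and 8.34 CPM with siZCC, the highest siZCC library just above the 2 lowest of siNC. The log2 fold change was -0.44 (SE 0.0963, adjusted p 0.00357). BCL11B, which acts with FEZF2 in subcerebral neurons and also in striatal neurons, stood at 19.6, 21.3 and 21.8 CPM in siNC, and 15.5, 18.4 and 19.5 CPM with siZCC. Its groups did not overlap, by a narrow margin (lowest siNC library 19.62, highest siZCC library 19.54 CPM). It fell by 0.22 (SE 0.0506, adjusted p 0.00433). TBR1, the other cortical neuron factor tested, had a log2 fold change of -0.10 with an SE of 0.187.

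PAX6 went the other way from these neighbours in role. It stood at 59.7, 62.2 and 69.8 CPM in siNC, and 66.4, 70.2 and 75.04 CPM with siZCC, with overlap. It rose by 0.15 (SE 0.0440, adjusted p 0.0219), and the call was lost without siNC replicate 1 (0.13, adjusted p 0.0506) or siZCC replicate 5 (0.13, adjusted p 0.0507). Of its annotated exon bases, 25.2% overlap ELP4 on the opposite strand, which had a log2 fold change of 0.18 (SE 0.0413). In the group of dorsal forebrain progenitor factors, 4 of the 6 tested fell, PAX6 rose and LHX9, at 0.252 ± 0.0337 CPM in siNC, was not called.

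The DLX genes, which drive the GABAergic lineage of the ventral forebrain, were not called. DLX1 and DLX2 are neighbours on chromosome 2 and stood at 22.3 ± 0.816 and 14.1 ± 0.807 CPM in siNC, against 21.2 ± 1.66 and 14.01 ± 1.03 CPM after knockdown (SD, n = 6 each). Their log2 fold changes were -0.07 (SE 0.0465) and -0.02 (SE 0.0520). DLX5 and DLX6, neighbours on chromosome 7, had -0.09 (SE 0.0744) and -0.12 (SE 0.0869). The value of DLX2 turned to 0.01 without siZCC replicate 2 and to 0.0015 without siZCC replicate 3. MEIS2 stood at 330.4, 349.5 and 366.6 CPM in siNC, and 295.4, 320.2 and 339.8 CPM with siZCC and fell by 0.14 (SE 0.0374, adjusted p 0.0121). Of the 7 factors of this group, NKX2-1 and MEIS2 were lower and 5 were not called.

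SOX2 was the most abundant of the factors and rose. It stood at 599, 616 and 655 CPM in siNC, and 692, 713 and 741 CPM with siZCC, and the groups did not overlap. Its log2 fold change was 0.20 (SE 0.0280, adjusted p 8.08e-05). SOX1 (0.06, SE 0.0415) and SOX3 (0.20, SE 0.0856, adjusted p 0.11) were not called. SOX3 was called without siZCC replicate 6 (0.25, adjusted p 0.0421).

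Among midbrain and border factors only EN2 was called, of 6 tested. EN2, the relative of EN1, stood at 2.45, 2.67 and 2.98 CPM in siNC, and 3.01, 3.52 and 3.67 CPM with siZCC, without overlap. It rose by 0.35 (SE 0.0712, adjusted p 0.00216). EN1, at 15.9 CPM per kilobase in siNC against 0.796 for EN2, stood at 45.8 ± 4.41 and 45.5 ± 4.07 CPM (SD, n = 6 each; log2 fold change -0.0094, SE 0.0654), and this value changed sign with the libraries used. LMX1B (-0.15, SE 0.0794) and GBX2 (-0.17, SE 0.0780) were not called, but both were called lower without siZCC replicate 5, at -0.22 each (adjusted p 0.0367 and 0.0446). PAX2 had a log2 fold change of -0.28 (SE 0.128, adjusted p 0.126) at 0.837 ± 0.108 CPM in siNC. PAX8 varied most between libraries of a group among the factors above 1 CPM, from 1.84 to 5.69 CPM in siNC, and from 1.79 to 5.43 CPM with siZCC, a coefficient of variation of 41.6% in siNC where counting alone gives 4.91%.

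In the ventral group, NKX6-1 averaged 156 ± 7.15 CPM in siNC, against 164 ± 7.61 CPM after knockdown, and was not called (0.08, SE 0.0365, adjusted p 0.154). IRX3 stood at 25.02, 27.2 and 29.9 CPM in siNC, and 30.5, 33.6 and 35.6 CPM with siZCC. All siZCC libraries lay above all siNC libraries, and it rose by 0.29 (SE 0.0454, adjusted p 2.54e-04). ZIC2, a zinc finger factor of the dorsal tube and forebrain midline, stood at 7.51, 7.84 and 8.897 CPM in siNC, and 6.47, 6.88 and 7.87 CPM with siZCC and fell by 0.20 (SE 0.0621, adjusted p 0.0252). Its call ended on leaving out siNC 4, siNC 6, siZCC 1, siZCC 4 or siZCC 6, with log2 fold changes from -0.20 to -0.17 and adjusted p from 0.0526 to 0.0618. ZIC1 was not called (0.05, SE 0.0436).

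HOXB4, a factor of the posterior hindbrain and spinal cord, gave the largest change among the 35 factors tested. It stood at 2.86, 3.08 and 3.49 CPM in siNC, and 4.42, 4.81 and 5.43 CPM with siZCC, a clear gap between the groups. Its log2 fold change was 0.65 (SE 0.0672, adjusted p 5.4e-06). It lies on chromosome 17 from 48575513 to 48580111 in the HOXB cluster, where 4.2% of its exon bases are shared with HOXB3 on the same strand and 12.8% with a sense intronic transcript, so the division of reads among them is uncertain; HOXB3 had a log2 fold change of 0.12 (SE 0.0455, adjusted p 0.0793). HOXB2 stood at 24.9, 27.9 and 30.5 CPM in siNC, and 28.8, 29.9 and 31.9 CPM with siZCC and rose by 0.13 (SE 0.0465, adjusted p 0.0481). That call was lost in 14 of the 23 alternative fits, among them upper quartile scaling (0.13, adjusted p 0.0667), the replicate block (0.14, adjusted p 0.0613) and fits lacking siNC 1, 4 or 6, or siZCC 1, 3, 4, 5 or 6 (0.11 to 0.14, adjusted p 0.0591 to 0.109). HOXA2 (-0.03, SE 0.0459) and HOXA5 (-0.25, SE 0.126, at 1.04 ± 0.207 CPM in siNC) were not called.

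**Figure D3:**
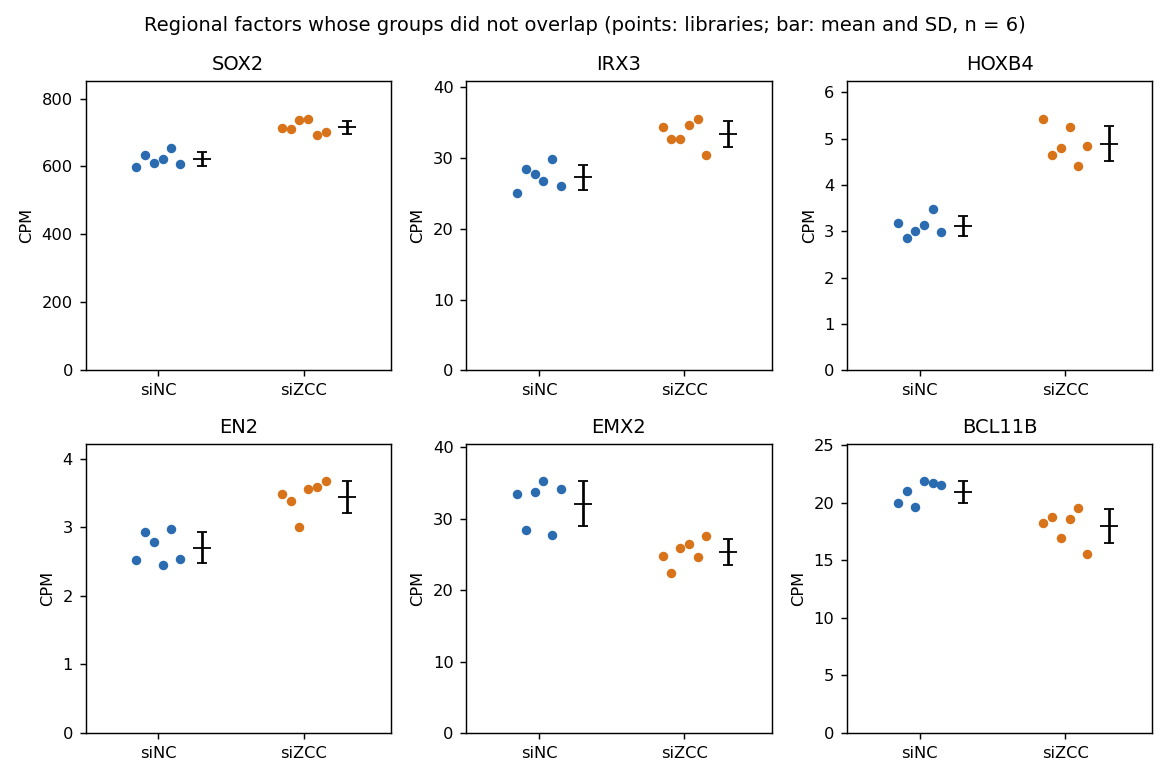
CPM of the 6 factors whose groups did not overlap, with every library as a point and the mean and SD (n = 6) beside it; axes start at 0. SOX2, IRX3, HOXB4 and EN2 were higher in siZCC, and EMX2 and BCL11B lower, with HOXB4 showing the widest gap.

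Libraries of 1 group also differed in the same order for several factors, but not for all those of the forebrain. In siNC, replicates 2 and 5 were the 2 lowest libraries for EMX2, LHX2, OTX1, OTX2, FEZF2, NKX2-1 and SIX3, and also for PAX8 and ZIC1, 9 of the 35 factors tested against 10.6% of all genes tested. For NKX2-1 these were 38.4 and 40.2 CPM, and the others ran from 44.8 to 51.1 CPM. The same 2 libraries were the highest for SOX2, PAX6, LHX9, MEIS2, NKX6-1, EN2, LMX1B and IRX3, 8 of 35 against 11% of all genes. The forebrain factors PAX6, LHX9 and MEIS2 thus had the opposite order, and the DLX genes, BCL11B and SIX6 had neither. In siZCC, replicate 2 was the lowest for the first 7 of these factors and for 5 others, 12 of 35 against 20.6% of all genes. Both patterns at once held for 8 of the 35 (the 7 and ZIC1) and for 2.4% of all genes tested. These libraries and the 7 factors, which come from 4 of the role groups, were picked after the values were seen, and what sets them apart was not tested.

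**Figure D4:**
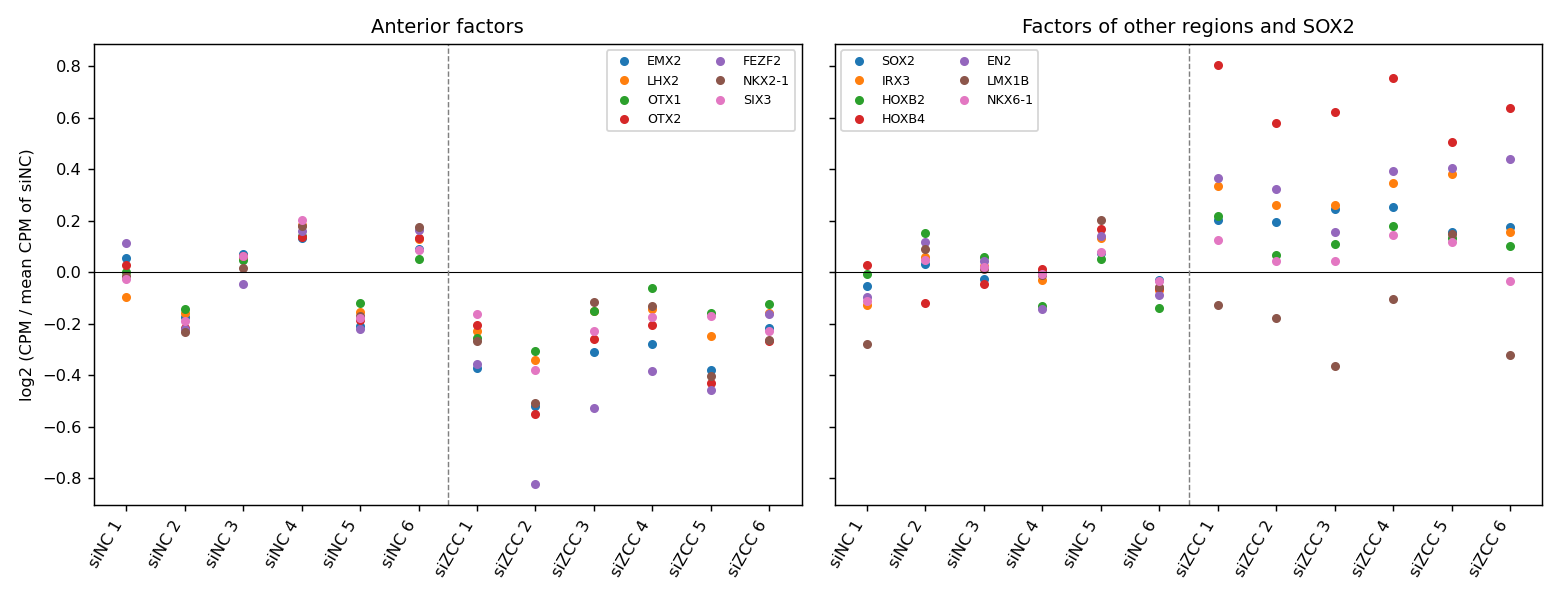
Log2 of each library's CPM over the siNC mean, for 7 forebrain factors picked for their like order (left) and SOX2 with 6 factors of other regions (right), 1 column of points per library. On the left, siNC 2 and 5 sit together below the other siNC libraries and siZCC 2 is the lowest column; on the right, HOXB4 is the highest point in every siZCC library.

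The differences were present on both sides of the IL1B split. All 10 factors called lower had a negative and all 6 called higher a positive log2 fold change in the 6 libraries with high and in the 6 with low IL1B. EMX2 gave -0.35 (adjusted p 0.0157) and -0.34 (adjusted p 0.0529), NKX2-1 -0.26 and -0.29, and HOXB4 0.77 (adjusted p 0.00256) and 0.54 (adjusted p 0.00485). With 3 libraries against 3, only SOX2 and HOXB4 were called on both sides. The factors were chosen from the fit to all libraries, so these values are no separate evidence.

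Promoter sequences are shown for 2 factors that fell and 2 that rose, from RefSeq on GRCh38.p14, 250 bases before to 50 after the gene's start in RefSeq, 5′ to 3′ on the gene's strand. For EMX2 and NKX2-1 that start lies inside the GENCODE v29 gene, so these windows are within it. They are EMX2 (chr10:117542496-117542795, plus strand), NKX2-1 (chr14:36520183-36520482, minus strand), SOX2 (chr3:181711675-181711974, plus strand) and EN2 (chr7:155457879-155458178, plus strand). Capitals mark matches, on either strand, to any of 4 short words searched: TAATCC (the bicoid-class core, as of OTX factors), TAATTA (a homeodomain core, as of LHX, DLX, EN and LMX1 factors), TGACAG (MEIS) and AACAAT (SOX). Each printed promoter holds at most 1 match, so no matches overlap.
EMX2: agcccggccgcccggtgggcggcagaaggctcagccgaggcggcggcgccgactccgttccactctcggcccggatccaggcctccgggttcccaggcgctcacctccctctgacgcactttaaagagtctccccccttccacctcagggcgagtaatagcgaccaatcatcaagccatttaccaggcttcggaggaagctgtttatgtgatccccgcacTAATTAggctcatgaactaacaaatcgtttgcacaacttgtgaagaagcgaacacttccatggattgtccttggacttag
NKX2-1: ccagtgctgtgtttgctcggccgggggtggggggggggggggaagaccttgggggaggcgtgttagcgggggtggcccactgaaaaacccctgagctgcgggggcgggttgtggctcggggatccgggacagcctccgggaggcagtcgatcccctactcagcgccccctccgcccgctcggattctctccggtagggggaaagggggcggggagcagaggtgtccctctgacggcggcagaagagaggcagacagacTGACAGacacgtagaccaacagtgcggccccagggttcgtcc
SOX2: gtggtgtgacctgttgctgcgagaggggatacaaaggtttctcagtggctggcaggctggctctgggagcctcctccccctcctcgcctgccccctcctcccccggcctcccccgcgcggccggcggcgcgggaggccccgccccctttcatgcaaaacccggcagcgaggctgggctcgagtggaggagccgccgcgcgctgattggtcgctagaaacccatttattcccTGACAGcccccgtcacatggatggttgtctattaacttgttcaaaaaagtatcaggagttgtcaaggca
EN2: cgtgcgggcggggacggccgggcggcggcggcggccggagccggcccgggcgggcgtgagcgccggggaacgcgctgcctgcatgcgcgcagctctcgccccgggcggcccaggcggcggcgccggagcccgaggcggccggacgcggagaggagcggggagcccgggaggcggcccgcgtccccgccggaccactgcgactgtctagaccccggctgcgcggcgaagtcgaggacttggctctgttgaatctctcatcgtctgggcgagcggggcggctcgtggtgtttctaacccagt
The promoters of EMX2 and EN2 differ in base composition, at 58.0% and 78.0% G and C, and NKX2-1 (69.0%) and SOX2 (63.3%) lie between. A RefSeq promoter was matched for 32 of the 42 factors, with a median of 64.2% G and C against 58.7% over 35116 promoters. TGACAG was found in 10 of the 32 and in 15.8% of all promoters, among them OTX1 and NKX2-1, which fell, and SOX2, which rose. TAATTA was found in 2 (EMX2 and TBR1; 4.84% of all), TAATCC in 1 (PAX7; 6.36% of all) and AACAAT in 1 (TBR1; 10.1% of all). A match of letters is not a binding site, and its absence from this window says nothing of the factor.

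Other regional transcription factors, from a list of 65, gave 6 higher and 6 lower of 48 tested, with a median log2 fold change of -0.04. Over all genes tested, 22.2% were called, 11.4% higher and 10.8% lower. The 3 falls with the smallest p were EGR2, a factor of hindbrain segments (-0.37, SE 0.0825), MSX1, of the dorsal midline (-0.30, SE 0.0696), and RAX (-0.31, SE 0.0767). Among the rises were NKX6-2, a ventral factor close to NKX6-1 (0.66, SE 0.0492, from 21.4 to 33.9 CPM), and NR2F1, known from the caudal cortex (0.22, SE 0.0386). By edgeR's test, adjusted p for these 5 genes ran from 3.39e-07 to 0.00774.

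Of the 35 HOX genes outside the 42, 21 were tested, 2 were higher and 1 lower, while 22.2% of all genes tested were called. HOXB9 (0.47, SE 0.104) and HOXB6 (0.75, SE 0.227, at 0.115 CPM in siNC) rose and HOXA9 fell from 63.7 to 52.6 CPM (-0.28, SE 0.0446). HOXA10 (52.1 CPM in siNC, log2 fold change 0.04), beside HOXA9 in the cluster, was not called. The HOXC genes were all under 1 CPM in siNC, and HOXD3 was the HOXD gene with the most counts, at 10.7 CPM.

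**Figure D5:**
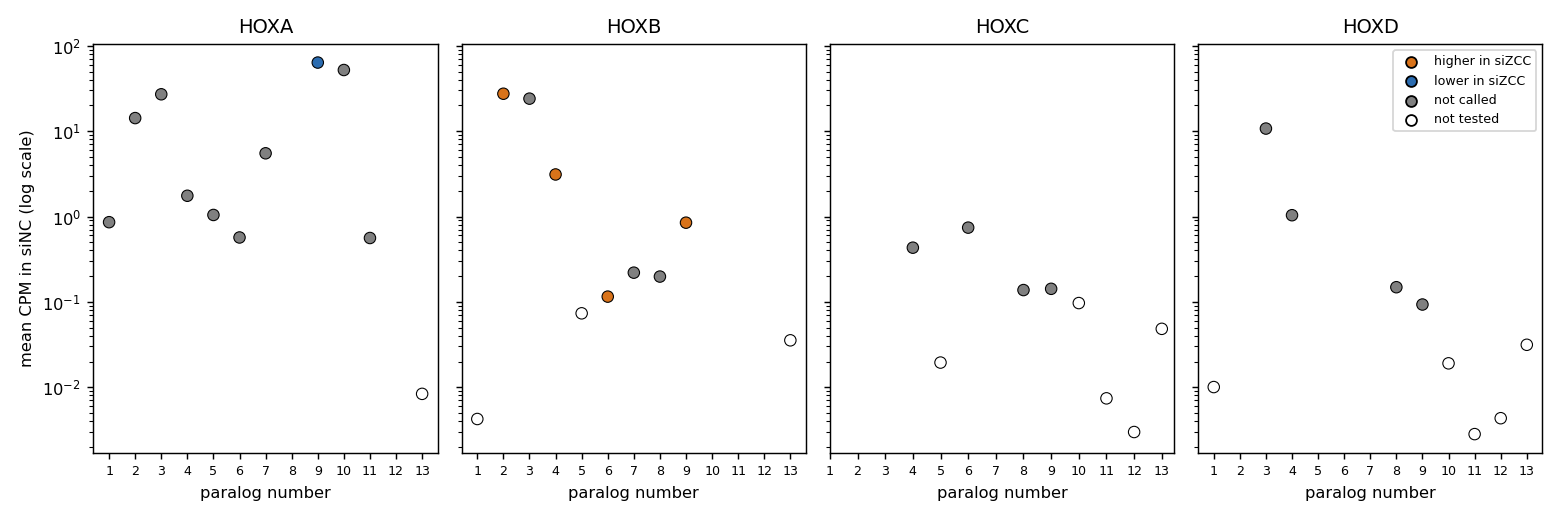
Mean CPM in siNC (log scale) of the HOX genes of each cluster by paralog number, coloured by the call in siZCC against siNC. The 4 genes called higher (HOXB2, HOXB4, HOXB6 and HOXB9) are in the HOXB cluster and the gene called lower is HOXA9; HOXC genes are all below 1 CPM.

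Genes of the signals that set these factors were compared from lists, beside 22.2% called over all genes tested (11.4% higher and 10.8% lower). In the hedgehog list (13 tested), 2 were higher and 1 lower. SHH, the ventral signal itself, fell from 16.9 to 13.5 CPM (-0.32, SE 0.0710), and BOC (0.13, SE 0.0280) and SUFU (0.09, SE 0.0282), a coreceptor and an inhibitor, rose. The target GLI1 was not called (-0.16, SE 0.0845). In the FGF list (17 tested), 3 were higher and 4 lower. The receptors FGFR2 (0.33, SE 0.0516) and FGFR3 (0.12, SE 0.0397) and the inhibitor SPRED1 (0.17, SE 0.0536) rose, while FGF13, an intracellular family member (-0.21, SE 0.0376), and the feedback genes DUSP6 (-0.27, SE 0.0502) and SPRY4 (-0.18, SE 0.0345) fell, as did the target ETV5 (-0.15, SE 0.0425). In the retinoic acid list (15 tested), 4 were higher and the others were not called. CYP26B1, which breaks down retinoic acid, rose from 23.5 to 34.5 CPM (0.55, SE 0.0956), DHRS3, which reduces its precursor, rose by 0.49 (SE 0.0903) and the binding protein CRABP2 by 0.24 (SE 0.0436). The adjusted p of the genes named as changed in these 3 lists was at most 0.0371.

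The label of neurons was checked against markers. In siNC, DCX stood at 649 CPM, STMN2 at 484 and MAP2 at 1027. Of the other neuron markers, ELAVL4 stood at 21.8, TUBB3 at 14.2 and RBFOX3, of mature neurons, at 1.27 CPM. The progenitor and glial genes NES, VIM and GFAP stood at 1118, 3550 and 615.5 CPM. Calls among markers of each cell type are given below, beside 22.2% called over all genes tested (11.4% higher and 10.8% lower). Of 12 genes of dividing cells, 11 were lower, and their summed level ran from 899 to 1014 CPM in siNC, and 714 to 828 CPM with siZCC. Of 14 neuron markers, 7 were lower and 1 higher (4008 to 4479 against 3614 to 4109 CPM). Of 12 progenitor and radial glia markers, 3 were higher and 3 lower (8185 to 8683 against 8592 to 9172 CPM). Of the 5 choroid plexus and ependyma markers, 3 were tested and lower (79.4 to 107.8 against 55.97 to 85.3 CPM), mostly through FOXJ1, while TTR had 12 counts over all libraries. Of 8 astrocyte markers, 3 were higher and 1 lower (1222 to 1521 against 1253 to 1626 CPM). Fibroblast and mesenchyme markers had 3 lower of 9 tested (170 to 402 against 114 to 237 CPM, mostly COL1A1), neural crest markers 3 lower of 6 (254 to 279 against 256 to 287 CPM), endothelial markers 2 lower of 5 (12.4 to 17.6 against 8.62 to 10.7 CPM) and oligodendrocyte lineage markers 1 lower of 6 (154 to 194 against 160 to 195 CPM). Pluripotency markers had 2 higher and 1 lower of 4 (60.4 to 66.6 against 60.3 to 65.7 CPM), with ZFP42 at 1 count in all. Microglial markers summed to at most 2.68 CPM in siNC, and 2.37 CPM with siZCC, with none called of 3 tested. The part of any of these in the changes of the regional factors was not tested.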

How the data were processed

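The authors deposited whole-number counts per gene symbol, 1 column per library. The submitters' processing notes name bcl2fastq 2.17, STAR 2.7.6a, featureCounts 2.0.1 and the build GRCh38. Libraries were made with a directional kit, per the labels' protocols; the annotation, strand setting and treatment of multi-mapping reads are not given in the sources used here.

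Counts were tested in R 4.3.3 with edgeR 4.0.16 (filterByExpr, TMM, glmQLFit, glmQLFTest, no covariate), and p-values were Benjamini-Hochberg adjusted across the 24671 genes that passed the filter; 0.05 was the threshold. A standard error is the log2 fold change over the square root of F. CPM values are TMM-scaled, and lengths and positions are from GENCODE v29 (GRCh38). The members and lists were chosen with earlier results of these data known, so no test was made on a list. Named are all members, in each other list the 3 smallest p-values called in each direction, and others chosen after their values were seen; some genes that this rule names are not reported here. On simulated counts over 24371 genes, 86.2% of changes of 1 on the log2 scale, 63.1% of 0.5 and 43.9% of 0.25 were recovered. The genes changed there were few and drawn at random from all genes kept, so these shares do not measure recovery for the factors. Alternatives used DESeq2 1.42.0, limma 3.58.1, other scalings and filters, GC content and length offsets, blocks by replicate number and by IL1B, each IL1B side alone, and leaving out each library.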

Additional observations from a re-analysis of the deposited data

Results flagged for a closer look

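The 35 factors tested and the library totals gave 72 groups of 6 libraries, in which chance alone sets 1 library far from the rest in about 5% of groups. It was seen in 4. SIX3 was lowest in siZCC replicate 2, at 3.14 in log2 CPM against 3.29 to 3.35 in the other siZCC libraries (gap 0.696 of the range). EN1 was lowest in siZCC replicate 6, at 5.24 against 5.47 to 5.6 (gap 0.655), and GBX2 in siNC replicate 1, at 3.35 against 3.60 to 3.72 (gap 0.666). Replicate 4 had the smallest siNC total, 90755953 counts, while its group otherwise ran from 109973707 to 120023356 (gap 0.657).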

How the results depend on the processing

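All 16 called factors kept their direction in all 23 alternative fits. SOX2 and HOXB4 were called in every one of them, and 11 of the 16 in every fit that left out 1 library. Over all libraries, other scalings, filters and tools called 15 to 17 factors and 4785 to 6492 genes. Leaving out each library in turn called 12 (without siNC replicate 4 or 6) to 16 factors, 4 to 6 higher and 7 to 12 lower, and 4484 to 5626 genes. Over all genes tested no pairing by replicate number was seen, since deviations of same-numbered libraries correlated at -0.077 to 0.018. Some factors, picked after their values were seen, did follow the number. PAX6 had the same library order in both groups. Replicates 2 and 5 were the lowest pair in both groups for EMX2, LHX2, OTX2 and NKX2-1. The fit with the replicate number as a block called 4902 genes and 15 factors, 5 higher and 10 lower, losing HOXB2 (0.14, adjusted p 0.0613). In that fit the adjusted p was smaller for NKX2-1 (3.56e-04), OTX2 (1.14e-04) and PAX6 (0.00327). It was larger for SOX2 (7.47e-04), EN2 (0.00746) and ZIC2 (0.0483). Within the 6 libraries with high IL1B, 2043 genes were called (1051 higher, 992 lower) and 6 factors, 2 of them lower. Within the 6 with low IL1B, 1602 genes were called (870 higher, 732 lower) and 3 factors, 2 higher and 1 lower. Each of these fits had 3 libraries a group.

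Of the factors not called, 8 changed sign in some fit. GSX2, at -0.0009 over all libraries, gave 0.0084 with DESeq2, 0.0311 with limma voom, 0.0226 with the replicate block, 0.0483 with the IL1B block and -0.17 to 0.2019 without single libraries. SIX6 gave -0.104 with limma voom and -0.126 to 0.3374 without single libraries. With high IL1B alone, TBR1 gave 0.0442, DLX1 0.0145, DLX2 0.0234 and EN1 0.0265, and with low IL1B alone ZIC1 gave -0.0034. Without single libraries, DLX2 ran from -0.0419 to 0.01, EN1 from -0.0558 to 0.0354 and LHX9 from -0.0597 to 0.14. The cause was not tested. Depth limits the precision of factors at few counts: in siNC counting alone gives a coefficient of variation of 27.9% for GSX2 and 28.3% for SIX6, where 48.9% and 37.8% were seen. GC and length offsets covered 94.9% of genes and all 35 factors, and added GBX2 (-0.19, adjusted p 0.0479).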
